A study of Mus musculus with 2 samples.

Results

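The genes followed here make or remove reactive oxygen species in the mononuclear cells of mouse skeletal muscle. They are 9 of the 27998 genes in the count tables: Duox1, Duoxa1, Nox4, Cybb, Cyba, Sod3, Gpx3, Cygb and Cat. They were chosen by their summed UMI counts in the cell classes and tissues of these same libraries and by the joint detection of Duox1 and Duoxa1, so those values are given as a description and no test was made on them. A UMI is a molecular tag that marks 1 captured transcript. The study took quadriceps and diaphragm from C57BL/6J mice and used 10 mice in all. Cells of each muscle were pooled over animals and sorted on scatter alone. There was 1 library per tissue and no treatment or mutation, so tissue, animal pool and library cannot be told apart and no p-value is given. All intervals are exact 95% intervals that cover counting error only.

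NADPH oxidases pass electrons to oxygen and so make superoxide or hydrogen peroxide. DUOX1 releases hydrogen peroxide at the cell surface and needs its maturation factor DUOXA1 to leave the endoplasmic reticulum. NOX4 is active without a trigger, CYBB is the catalytic subunit of the phagocyte oxidase, and CYBA is the membrane partner of both NOX4 and CYBB. On the removing side, SOD3 is the extracellular superoxide dismutase, GPX3 is the secreted glutathione peroxidase, catalase splits hydrogen peroxide in peroxisomes, and cytoglobin (Cygb) is a haem protein of fibroblast-like cells. Fibro-adipogenic progenitors (FAPs) are the matrix-producing mesenchymal cells between muscle fibres.

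The quadriceps library held 5159 barcodes and 50854519 UMIs and the diaphragm library held 2499 barcodes and 28545242 UMIs. The libraries shared 5 barcode sequences. FAPs were barcodes with at least 50 UMIs of Dcn, a matrix proteoglycan, and a sum of at least 1 UMI over Pdgfra and Cd34. There were 2494 FAPs in quadriceps (48.3% of barcodes) and 2061 in diaphragm (82.5%), with medians of 10720 and 12555 UMIs. The 8 fixed FAP markers summed to 68841 CPM (UMIs per 1000000 UMIs of the group) in quadriceps FAPs and 65407 in diaphragm FAPs, against 1048 and 1632 in barcodes with fewer than 5 Dcn UMIs. Those barcodes, called other barcodes below, numbered 2382 and 311. Clustering gave FAP-like classes of 2479 and 1534 barcodes, and 600 diaphragm FAPs of the gate fell into clusters that could not be named, most of them in 1 cluster led by Slit2, Mfap4 and Thbs4. The clusters that made up the FAP-like class differed between tissues. The one with most diaphragm cells held 744 of them against 32 of quadriceps and was led by Cxcl1, Col6a5 and Sfrp1 with the stress genes Socs3, Junb and Egr1 among its leading genes, and the one with most quadriceps cells held 695 against 9 and was led by Ptn and Prg4.

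The 2 libraries also differed in early-response genes. Fos stood at 260 CPM in quadriceps FAPs and 2700 CPM in diaphragm FAPs, and Egr1 at 401 and 2370 CPM. Markers of other cells within FAPs also differed: the 8 smooth muscle or pericyte markers summed to 1792 CPM in quadriceps FAPs and 52.9 CPM in diaphragm FAPs, the 8 tenocyte markers to 906 and 1695 CPM, and the 5 mesothelial markers to 9.98 and 123 CPM. The part of these differences in the tissue comparisons below was not tested.

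**Figure D1:**
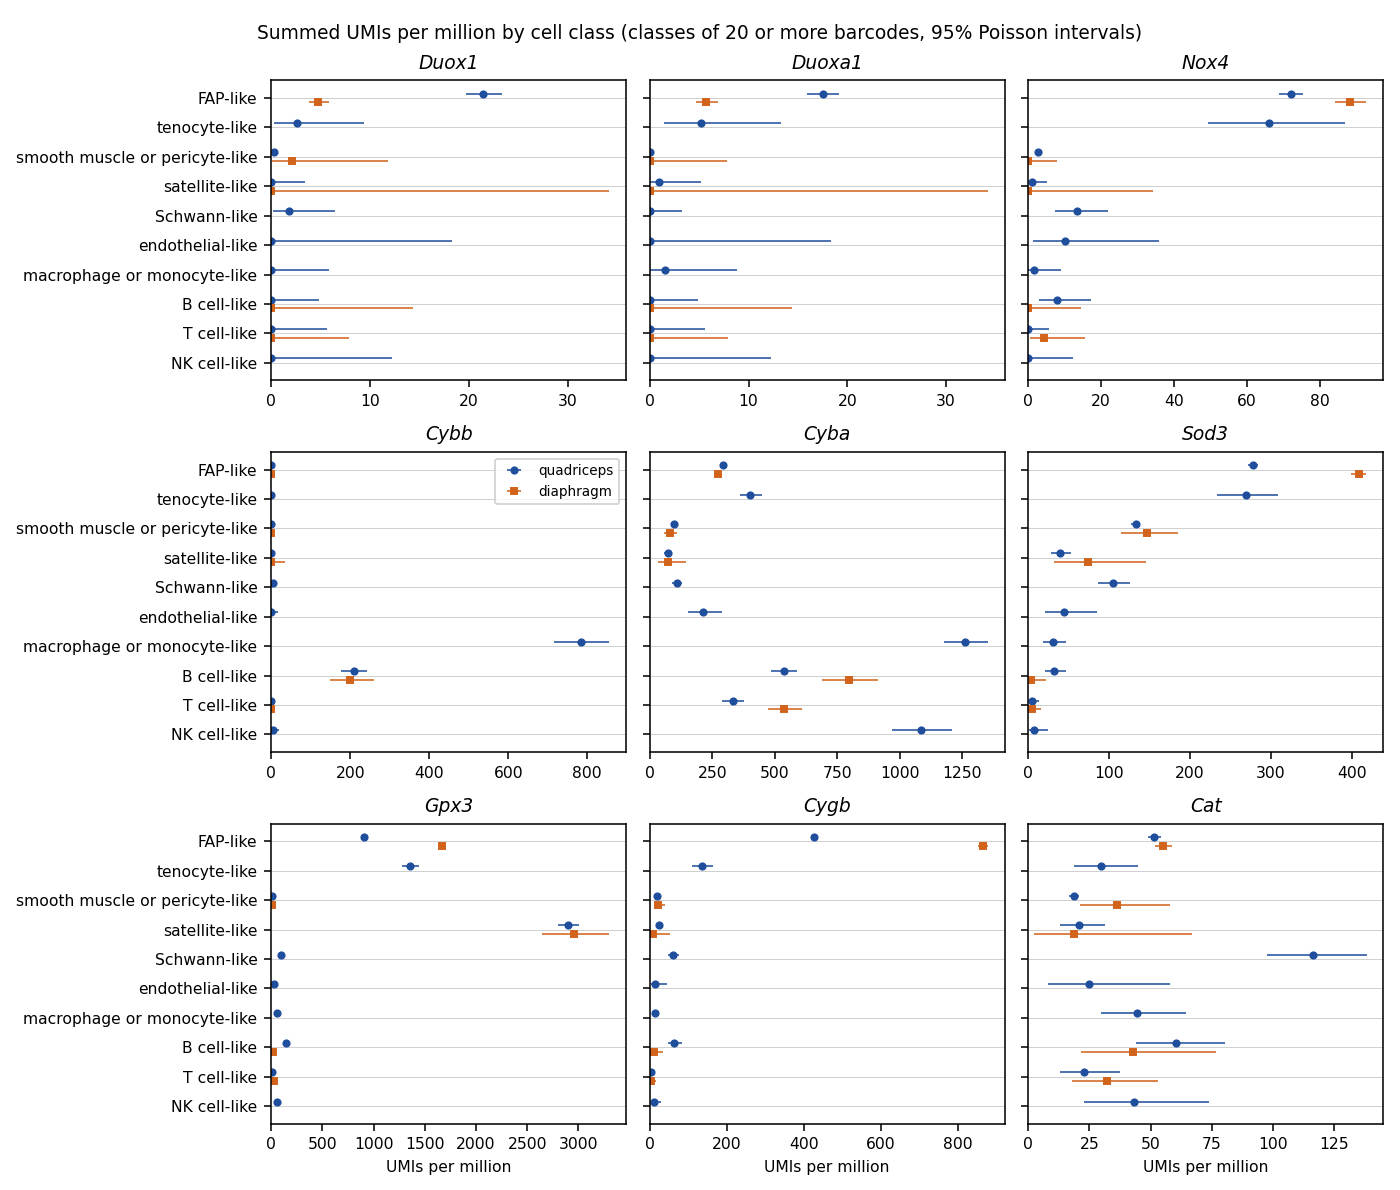
CPM from summed UMIs of each member (x axis, linear from 0, own scale per gene) in each named cell class of 20 or more barcodes (y axis), for quadriceps (circles) and diaphragm (squares). Bars are 95% Poisson intervals. By point value, Duox1 and Duoxa1 are highest in FAP-like barcodes of quadriceps, Cybb in macrophage or monocyte-like barcodes (783 CPM), Gpx3 in satellite-like barcodes (2898 and 2958 CPM) and Cat in Schwann-like barcodes (116 CPM).

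Duox1 and Duoxa1 were transcripts of FAPs, and of quadriceps FAPs above all. Duox1 had 554 UMIs in quadriceps FAPs and 101 in diaphragm FAPs, or 19.7 CPM (18.1 to 21.5) and 3.81 CPM (3.10 to 4.63). These counts are 96.0% and 96.2% of all its UMIs in each library. FAPs held 28069816 of the 50854519 UMIs of all genes in quadriceps and 26512112 of 28545242 in diaphragm. A high share in diaphragm thus says little on its own. Duoxa1 had 451 and 112 UMIs, or 16.1 CPM (14.6 to 17.6) and 4.22 CPM (3.48 to 5.08). The intervals of the 2 tissues did not overlap for either gene. The Duox1 level was 5.18-fold lower in diaphragm FAPs (log2 ratio -2.37, interval -2.69 to -2.06) and the Duoxa1 level 3.803-fold lower (-1.93, -2.24 to -1.63).

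In named classes other than FAP-like and in other barcodes the pair was close to its detection limit. Barcodes just below the Dcn limit of the gate are given further below. Smooth muscle or pericyte-like barcodes of quadriceps, 1116 in number and deeper than FAPs at a median of 14807 UMIs, held 4 UMIs of Duox1 and 1 of Duoxa1. A Duox1 UMI was thus seen in 0.358% of them (0.0977 to 0.915%), against 14.2% (12.8 to 15.6%) of FAP-like barcodes of the same library at a median of 10395 UMIs. The 99 tenocyte-like barcodes of quadriceps, 40.4% of them FAPs by the gate, held 2 UMIs of Duox1 and 4 of Duoxa1. The latter is 5.18 CPM (1.41 to 13.3). The 180 Schwann-like barcodes held 2 UMIs of Duox1 and 0 of Duoxa1. In quadriceps the satellite-, endothelial-, macrophage or monocyte-, B cell-, T cell- and NK cell-like classes held 0 Duox1 UMIs. A count of 0 allows up to 3 UMIs, which is 2.82 CPM in satellite-like barcodes and 14.9 CPM in the 58 endothelial-like barcodes, so a level like that of diaphragm FAPs was not detectable in the smaller classes. Other barcodes of quadriceps had 4 Duox1 UMIs, and the Duox1 level of FAPs was 107-fold higher than theirs (log2 6.74, interval 5.37 to 8.62). In diaphragm other barcodes had 1 UMI of Duox1 (0.617 CPM) and a ratio of 6.18-fold whose log2 interval ran from 0.12 to 7.94. Duoxa1 had 3 UMIs in quadriceps other barcodes and 0 in those of diaphragm, where FAPs were at least 2.28-fold higher against a floor of 3 UMIs over the group.

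The 2 genes are neighbours on chromosome 2 of GRCm38 and are read away from each other. GENCODE places Duoxa1 (ENSMUSG00000027224) at chr2:122302191-122313730 on the minus strand and Duox1 (ENSMUSG00000033268) at chr2:122315672-122347972 on the plus strand. Their GENCODE starts lie 1942 bases apart. RefSeq begins its Duox1 record further out, at base 122313010, inside its Duoxa1 record, which runs to base 122313763. More than 1 start is thus annotated for Duox1. The paralogue pair Duox2 and Duoxa2 lies next to Duoxa1, and the 3′ end of Duoxa1 overlaps Duoxa2 on the other strand by 695 bases. Duox2 had 0 UMIs in quadriceps FAPs and 1 in diaphragm FAPs, and Duoxa2 had 1 and 0, so the reads of this locus were given to Duox1 and Duoxa1. Whether a read in the overlap could be given to the wrong gene was not tested.

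The 250 bases before each GENCODE start are shown because these neighbours were found in the same cells. They are RefSeq sequences of GRCm38.p6, each read 5′ to 3′ on its gene's own strand, and capitals mark the GC box GGGCGG on either strand. The Duoxa1 window is chr2:122313731-122313980 (minus strand) and the Duox1 window is chr2:122315422-122315671 (plus strand).
Duoxa1: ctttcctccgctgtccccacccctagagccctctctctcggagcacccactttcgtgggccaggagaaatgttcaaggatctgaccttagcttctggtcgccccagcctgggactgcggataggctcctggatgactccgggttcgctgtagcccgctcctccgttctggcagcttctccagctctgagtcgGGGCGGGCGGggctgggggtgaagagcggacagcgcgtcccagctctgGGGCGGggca
Duox1: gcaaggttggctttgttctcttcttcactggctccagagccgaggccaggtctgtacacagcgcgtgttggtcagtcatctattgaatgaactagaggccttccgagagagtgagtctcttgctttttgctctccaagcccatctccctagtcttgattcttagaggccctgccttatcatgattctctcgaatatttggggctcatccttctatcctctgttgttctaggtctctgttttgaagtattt

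The Duoxa1 window held 3 GC boxes, a pair of which overlap, 16 CpG dinucleotides and 65.6% G or C. The RefSeq Duoxa1 record runs to base 122313763, so the end of this window, with its last GC box, lies inside that record. The whole Duoxa1 window also lies inside the RefSeq record of Duox1. The Duox1 window held 0 GC boxes, 5 CpG dinucleotides and 47.6% G or C. It precedes the GENCODE start of Duox1 and lies inside the RefSeq record, which begins at base 122313010. The bases before that RefSeq start were not examined as a Duox1 window. A GC box was present in 32.7% of all 32851 windows of this length. Neither window held the TATA box TATAAA, which 12.4% of windows hold on either strand, the E-box CANNTG (66.2%), the AP-1 site TGANTCA (6.75%) or the antioxidant response element core TGACNNNGC (10.2%). Of the 9 members 7 had a window in this table, and the Nox4, Cyba, Gpx3 and Cat windows held 1, 2, 1 and 1 GC boxes.

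Within FAPs, Duox1 and Duoxa1 were found in the same cells more often than their separate shares would give. Of 2494 quadriceps FAPs, 345 had a UMI of Duox1, 311 of Duoxa1 and 170 of both, where the product of the shares gives 43.0. Of 2061 diaphragm FAPs, 74 had Duox1, 75 had Duoxa1 and 28 had both, where the product gives 2.69. Thus 49.3% of Duox1 cells in quadriceps and 37.8% in diaphragm also had Duoxa1. Cells with both were deeper, with medians of 12975 UMIs in quadriceps and 16909 in diaphragm, against 10327 and 12432 for FAPs with neither. Scrublet called 2 of the 170 quadriceps cells as doublets. Depth was therefore made equal by taking the mean over all draws of 5000 UMIs per cell, which left out 141 quadriceps and 48 diaphragm FAPs that were shallower. Both genes were then present in 2.14% (1.59 to 2.81%) of 2353 quadriceps FAPs and 0.254% (0.0838 to 0.586%) of 2013 diaphragm FAPs. The products were 0.493% and 0.0216%, so the observed shares were 4.34 and 11.8 times the product. Such a ratio can be larger where the single shares are low, and Duox1 was present in 7.60% and 1.46% of these FAPs. Of the Duox1 cells at this depth, 28.1% in quadriceps and 17.4% in diaphragm also had Duoxa1. The diaphragm ratio rests on a mean of 5.11 cells. In other barcodes 0 of 2382 in quadriceps and 0 of 311 in diaphragm had both genes, with upper bounds of 0.155% and 1.18%.

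Counts per cell were low. In quadriceps 216 FAPs had 1 UMI of Duox1, 78 had 2 and 51 had 3 or more, with at most 6 in a cell. In diaphragm 60 FAPs had 1, 7 had 2 and 7 had 3 or more, with at most 8.

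Across FAPs, Pearson's r of log1p counts per 10000 between the pair was 0.44 in quadriceps (2494 cells) and 0.36 in diaphragm (2061 cells). All cells of a tissue share a library, and r in counts this sparse moves with depth. Among genes seen in at least 3% of FAPs of a tissue, Duoxa1 ranked 1 of 10839 in quadriceps and 1 of 10916 in diaphragm by r with Duox1, and Duox1 ranked 1 for Duoxa1 in both. This minimum was chosen after the values were seen, because both genes fall under the 5% minimum in diaphragm. The pair was chosen for its joint detection in these same FAPs, so its ranks are a description only. By the 5% rule, over 9733 genes and ordered by the smaller r of the 2 tissues, the genes most like Duox1 were Cmah (0.36 and 0.26), Efhd1 (0.39 and 0.24), Limch1 (0.38 and 0.22), Cd55 (0.39 and 0.22) and Fbn1 (0.37 and 0.21). For Duoxa1 they were Efhd1 (0.43 and 0.34), Dact2 (0.38 and 0.33), Cmah (0.39 and 0.32), Sema3c (0.43 and 0.30) and Sbsn (0.35 and 0.29). Cmah and Efhd1 were on both lists.

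**Figure D2:**
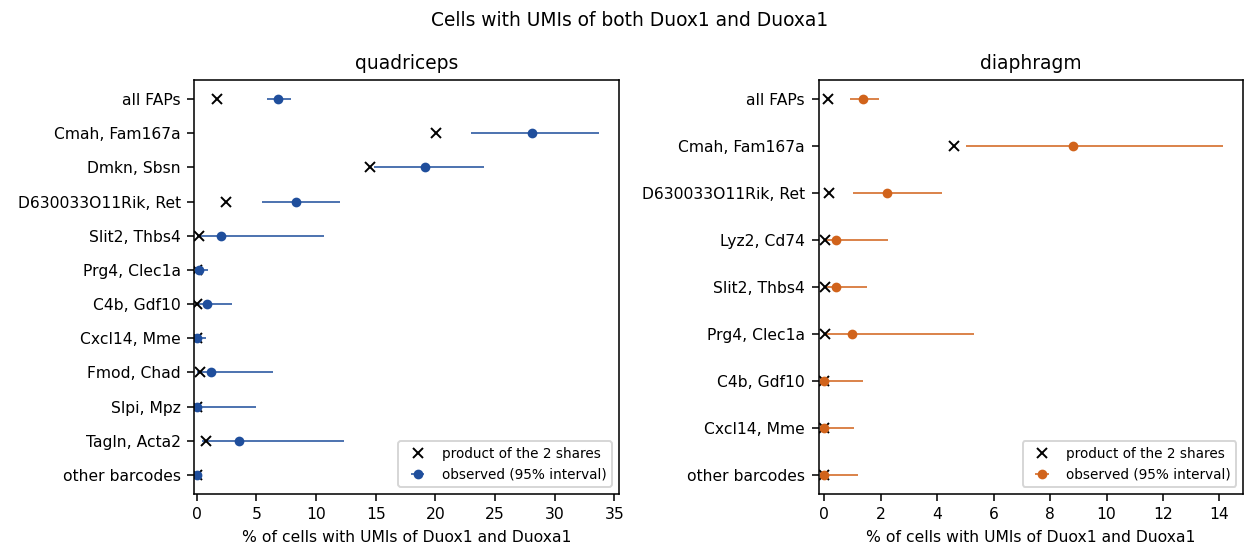
Percent of cells with a UMI of both Duox1 and Duoxa1 (x axis, own scale per tissue) in all FAPs, in FAP subclusters of 50 or more cells named by their leading genes, and in other barcodes (y axis), without thinning. Points are observed shares with 95% Clopper-Pearson intervals, and crosses are the product of the 2 single shares. In all FAPs of quadriceps the observed share is 6.82% and the product 1.72%, and in the Cmah, Fam167a subcluster they are 28.1% and 20.04%.

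FAPs were split into 12 subclusters without the listed oxidant genes, and the Duox pair was concentrated in 3 of them. The subcluster led by Cmah, Fam167a and Gap43 held 288 quadriceps and 170 diaphragm cells. Its Duox1 level was 71.8 CPM (63.0 to 81.4) in quadriceps and 18.2 CPM (13.3 to 24.3) in diaphragm, and its Duoxa1 level 60.8 CPM (52.8 to 69.7) and 27.3 CPM (21.2 to 34.5). The subcluster led by Dmkn, Sbsn and Krtdap was nearly confined to quadriceps, with 298 cells against 12, and there had 48.4 CPM of Duox1 (41.5 to 56.0) and 43.4 CPM of Duoxa1 (36.9 to 50.7). The subcluster led by D630033O11Rik, Ret and Pgf had 23.6 CPM of Duox1 (18.6 to 29.4) in 302 quadriceps cells and 5.17 CPM (3.43 to 7.47) in 407 diaphragm cells. These 3 subclusters made up 35.6% of quadriceps FAPs and held 89.9% of their Duox1 UMIs, 93.8% of their Duoxa1 UMIs and 163 of 170 cells with both. In diaphragm they made up 28.6% of FAPs and held 73.3% and 85.7% of these UMIs and 24 of 28 cells with both.

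At the other end, 454 quadriceps and 344 diaphragm cells led by Cxcl14 and Mme had 0.875 CPM and 0.479 CPM of Duox1, from 4 and 2 UMIs. The Prg4 and Clec1a subcluster, the largest in quadriceps with 596 cells, had 3.42 CPM (2.12 to 5.23). The Slit2 and Thbs4 subcluster, the largest in diaphragm with 475 cells, had 2.40 CPM (1.34 to 3.95). The order of the 3 highest subclusters in quadriceps held beyond their intervals for both genes. For Duox1 the third of them overlapped the 44 quadriceps cells led by Lyz2 and Cd74, at 12.1 CPM (4.85 to 24.9).

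Joint detection was closer to the product in the subclusters richest in Duox1 than over all FAPs. The ratio of observed share to product has an upper limit that falls as the single shares rise. Ratios of groups with unlike shares thus do not rank how closely the 2 genes go together. In the Ret and Pgf subcluster the ratio was slightly below that over all FAPs in quadriceps and above it in diaphragm. In the Cmah and Fam167a cells of quadriceps 28.1% (23.0 to 33.7%) had both genes and the product was 20.04%, a ratio of 1.40. In the Dmkn and Sbsn cells 19.1% (14.8 to 24.1%) had both and the product was 14.5%, a ratio of 1.32. In the Ret and Pgf cells 8.28% (5.43 to 12.0%) had both and the product was 2.47%, a ratio of 3.36. The ratio over all quadriceps FAPs, also without thinning, was 3.95. In diaphragm the ratio was 1.91 in Cmah and Fam167a cells, from 15 cells with both, and 13.5 in Ret and Pgf cells, from 9 cells, against 10.4 over all FAPs. The share of Duox1 cells that also had Duoxa1 was not lower in these subclusters. In quadriceps it was 60.9% in Cmah and Fam167a, 50.4% in Dmkn and Sbsn and 50% in Ret and Pgf cells. Over all quadriceps FAPs it was 49.3%. In diaphragm it was 48.4% in Cmah and Fam167a and 52.9% in Ret and Pgf cells, against 37.8% over all FAPs.

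**Figure D3:**
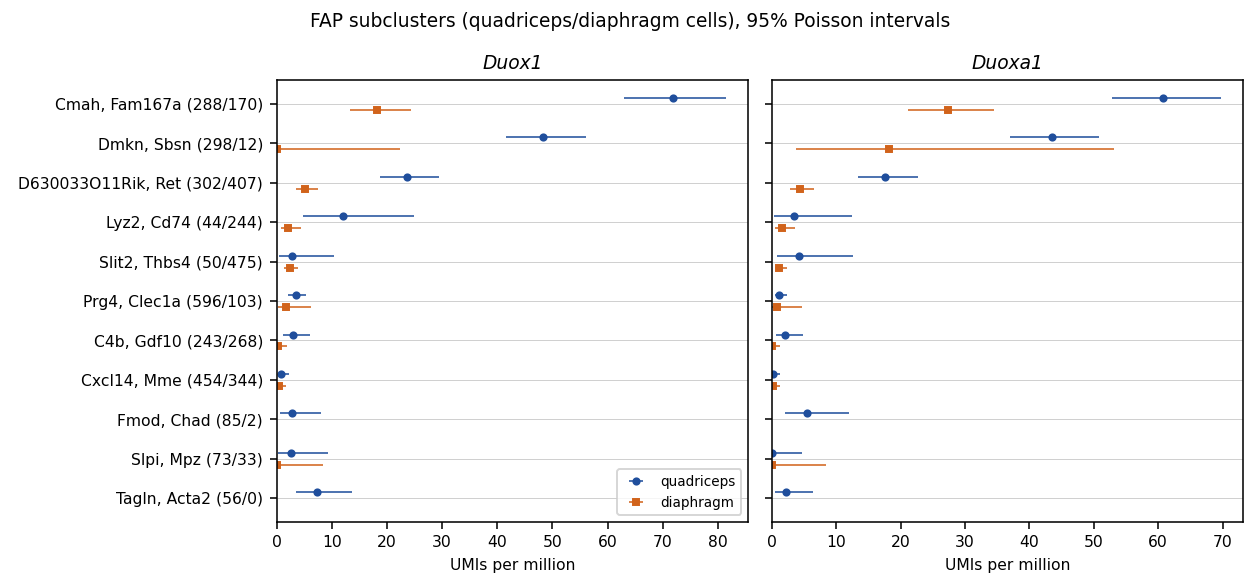
Duox1 and Duoxa1 CPM (x axes, linear from 0) in each FAP subcluster (y axis, named by its leading genes, with quadriceps and diaphragm cell numbers), shown for groups of 10 or more cells with 95% Poisson intervals. In quadriceps the Cmah, Fam167a subcluster is highest at 71.8 CPM of Duox1 and the Dmkn, Sbsn subcluster follows at 48.4 CPM. In the Cmah, Fam167a subcluster diaphragm lies below quadriceps for both genes.

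The tissue difference of the pair was also present inside subclusters. In the Cmah and Fam167a subcluster the log2 ratio of diaphragm over quadriceps was -1.98 (-2.47 to -1.52) for Duox1 and -1.16 (-1.57 to -0.76) for Duoxa1. In the Ret and Pgf subcluster it was -2.19 (-2.87 to -1.55) and -1.99 (-2.74 to -1.28). Of 7 subclusters with at least 20 cells and a Duox1 UMI in each tissue, 0 had the higher level in diaphragm. For Duoxa1 it was 1 of 6, from 1 UMI in each tissue. In the Prg4 and Clec1a and the Cxcl14 and Mme cells the Duox1 interval included no difference (-4.13 to 1.03 and -4.33 to 1.93). So did that of the Slit2 and Thbs4 cells (-2.37 to 2.91). The cells led by C4b and Gdf10 had 1 Duox1 UMI in diaphragm. When quadriceps subclusters were weighted to the make-up of diaphragm UMIs, the quadriceps level was 14.8 CPM of Duox1 and 11.5 CPM of Duoxa1, and the log2 ratios were -1.96 and -1.44. Genes that lead the same subclusters were also lower in diaphragm FAPs: Fam167a had 28.0 and 6.94 CPM in quadriceps and diaphragm, Gap43 18.2 and 3.77 CPM, and Dmkn 66.1 and 9.24 CPM.

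Nox4 (ENSMUSG00000030562, chr7:87246096-87398710, plus strand) had more UMIs in FAPs than either Duox gene and another order among FAP subclusters. Levels of different genes are set side by side here as UMIs of a 3′ tag, which do not grow with transcript length. It had 2010 UMIs in quadriceps FAPs and 2573 in diaphragm FAPs, or 71.6 CPM (68.5 to 74.8) and 97.0 CPM (93.3 to 101). The log2 ratio was 0.44 (0.35 to 0.52). By named class FAP-like barcodes came first at 71.9 and 88.3 CPM. Tenocyte-like barcodes of quadriceps, at 66.1 CPM (49.2 to 86.9), had an interval that overlapped that of the FAP-like class (68.7 to 75.3). Smooth muscle or pericyte-like barcodes had 2.58 CPM. FAPs were 32.2-fold above other barcodes in quadriceps and 22.5-fold in diaphragm.

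Among FAP subclusters the Slit2 and Thbs4 cells had 177 CPM of Nox4 (147 to 211) in 50 quadriceps cells, the highest level there, and 128 CPM (119 to 137) in 475 diaphragm cells. In diaphragm the Prg4 and Clec1a cells stood at 146 CPM (125 to 169), with an interval that overlapped that of the Slit2 and Thbs4 cells. The Cxcl14 and Mme cells were low in quadriceps and not in diaphragm, at 36.1 CPM (30.8 to 42.0) and 100.2 CPM (90.8 to 110). The Cmah and Fam167a cells had 60.2 and 55.0 CPM. With quadriceps weighted to the diaphragm make-up the log2 ratio was 0.07. That value leans on the 50 Slit2 and Thbs4 cells of quadriceps, since this subcluster makes up 23.0% of diaphragm FAPs. Within subclusters, 6 of 8 had the higher Nox4 level in diaphragm, with log2 ratios from -0.47 to 1.47. The genes most like Nox4 over FAPs, out of 9732, were Ctgf (0.24 and 0.34), Cilp (0.22 and 0.34), Serping1 (0.22 and 0.21), Wisp2 (0.20 and 0.22) and Ogn (0.20 and 0.20). The r of Nox4 with Duox1 was 0.03 and -0.04.

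Cyba (ENSMUSG00000006519, chr8:122424776-122432930, minus strand) was present in FAPs at 290 CPM (284 to 297) in quadriceps and 281 CPM (275 to 287) in diaphragm. The log2 ratio of -0.05 (-0.09 to -0.00) became 0.06 under median-of-ratios scaling, so no direction is given. Some leukocyte-like classes were higher, at 1262 CPM (1176 to 1353) in macrophage or monocyte-like and 1084 CPM (970 to 1208) in NK cell-like barcodes of quadriceps, whose intervals overlapped. B cell-like barcodes had 536 CPM in quadriceps and 795 CPM in diaphragm. T cell-like barcodes of quadriceps, at 331 CPM (289 to 378), did not differ from FAP-like barcodes beyond their interval, while those of diaphragm, at 537 CPM (472 to 607), lay above FAP-like barcodes at 271 CPM (264 to 279). FAPs lay above other barcodes in quadriceps (290 against 163 CPM) and below them in diaphragm (281 against 416 CPM).

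Cybb (ENSMUSG00000015340, chrX:9435252-9487771, minus strand) was all but absent from FAPs, where it had 25 UMIs in quadriceps (0.891 CPM, 0.576 to 1.31) and 5 in diaphragm (0.189 CPM, 0.0612 to 0.440). Macrophage or monocyte-like barcodes had 783 CPM (716 to 856) in quadriceps and 485 CPM (380 to 611) in the 10 such barcodes of diaphragm. B cell-like barcodes had 208 CPM (177 to 243) and 199 CPM (148 to 261). These 2 classes held 97.5% of Cybb UMIs in quadriceps and 89.1% in diaphragm. The macrophage or monocyte marker list summed to 16.4 CPM in quadriceps FAPs and 6.64 CPM in diaphragm FAPs, with 0 of 8 markers at 0 in either, and its part in the Cybb UMIs of FAPs was not tested. Other genes of the phagocyte oxidase were also low, and Ncf1, Ncf4 and Rac2 had 0.321, 0.428 and 1.14 CPM in quadriceps FAPs.

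Sod3 (ENSMUSG00000072941, chr5:52363791-52371418, plus strand) had 276 CPM (270 to 282) in quadriceps FAPs and 391 CPM (383 to 398) in diaphragm FAPs, a log2 ratio of 0.50 (0.46 to 0.55). The intervals of the 2 tissues did not overlap. Its next highest class with a level of its own was the smooth muscle or pericyte-like class, at 133 CPM (127 to 138) and 147 CPM (114 to 186). Tenocyte-like barcodes, at 269 CPM (234 to 309), did not differ from FAP-like barcodes beyond their interval. With quadriceps weighted to the diaphragm make-up the log2 ratio was 0.16, and 5 of 8 subclusters had the higher level in diaphragm.

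Gpx3 (ENSMUSG00000018339, chr11:54902453-54910377, plus strand) was the highest member in FAPs, at 888 CPM (877 to 899) in quadriceps and 1461 CPM (1447 to 1476) in diaphragm, a log2 ratio of 0.72 (0.70 to 0.74). Satellite-like barcodes, the muscle stem cells, were higher still, at 2898 CPM (2797 to 3002) in 203 barcodes of quadriceps and 2958 CPM (2642 to 3301) in 20 of diaphragm, and the intervals of the 2 muscles overlapped. Tenocyte-like barcodes of quadriceps, at 1357 CPM (1276 to 1442), also lay above FAP-like barcodes, at 909 CPM (898 to 921). Among FAP subclusters of quadriceps the Cmah and Fam167a cells had 353 CPM, the C4b and Gdf10 cells 2340 CPM and 85 cells led by the tendon genes Fmod and Chad 4133 CPM. In diaphragm the C4b and Gdf10 cells had 3326 CPM and the Cmah and Fam167a cells 402 CPM. All 8 subclusters compared had the higher level in diaphragm, with log2 ratios from 0.19 to 1.95.

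Cygb (ENSMUSG00000020810, chr11:116645595-116654313, minus strand) was 1.95-fold higher in diaphragm FAPs, with 410 CPM (403 to 418) in quadriceps and 801 CPM (790 to 812) in diaphragm. The log2 ratio was 0.96 (0.93 to 1.00), and all 8 subclusters compared were higher in diaphragm, by 0.53 to 1.51. FAPs held 95.02% and 98.8% of its UMIs, beside 28069816 of the 50854519 UMIs of all genes in quadriceps and 26512112 of 28545242 in diaphragm. The Cygb level of FAPs was 26.0-fold and 44.8-fold above other barcodes. Its pattern among FAP subclusters ran against that of the Duox pair in quadriceps, and less evenly in diaphragm. In quadriceps the Dmkn and Sbsn cells had 73.2 CPM (64.7 to 82.5) and the Cmah and Fam167a cells 112 CPM (101 to 124). The Ret and Pgf cells had 267 CPM (250 to 285) and the C4b and Gdf10 cells 848 CPM (811 to 885). In diaphragm the Cmah and Fam167a cells had 318 CPM (296 to 341). The Ret and Pgf cells there, at 754 CPM (732 to 778), lay above the Slit2 and Thbs4 cells at 635 CPM (615 to 655). The r between Cygb and Duox1 over FAPs was -0.30 in quadriceps and -0.11 in diaphragm. At 5000 UMIs per cell, cells with both Cygb and Duox1 were 0.54 times the product of the shares in quadriceps and 0.88 times in diaphragm. Cygb and Gpx3 had an r of 0.25 and 0.40.

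Cat (ENSMUSG00000027187, chr2:103453849-103485160, minus strand) had 50.8 CPM (48.2 to 53.5) in quadriceps FAPs and 57.7 CPM (54.8 to 60.6) in diaphragm FAPs, a log2 ratio of 0.18 (0.08 to 0.29), and 5 of 8 subclusters were higher in diaphragm. Schwann-like barcodes of quadriceps had 116 CPM (97.4 to 138), above all other named classes of 50 or more barcodes. With barcodes over 5% mitochondrial UMIs left out it was 63.6 CPM in 67 barcodes. The B cell-, FAP- and macrophage or monocyte-like classes followed at 60.3, 51.5 and 44.6 CPM with overlapping intervals.

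**Figure D4:**
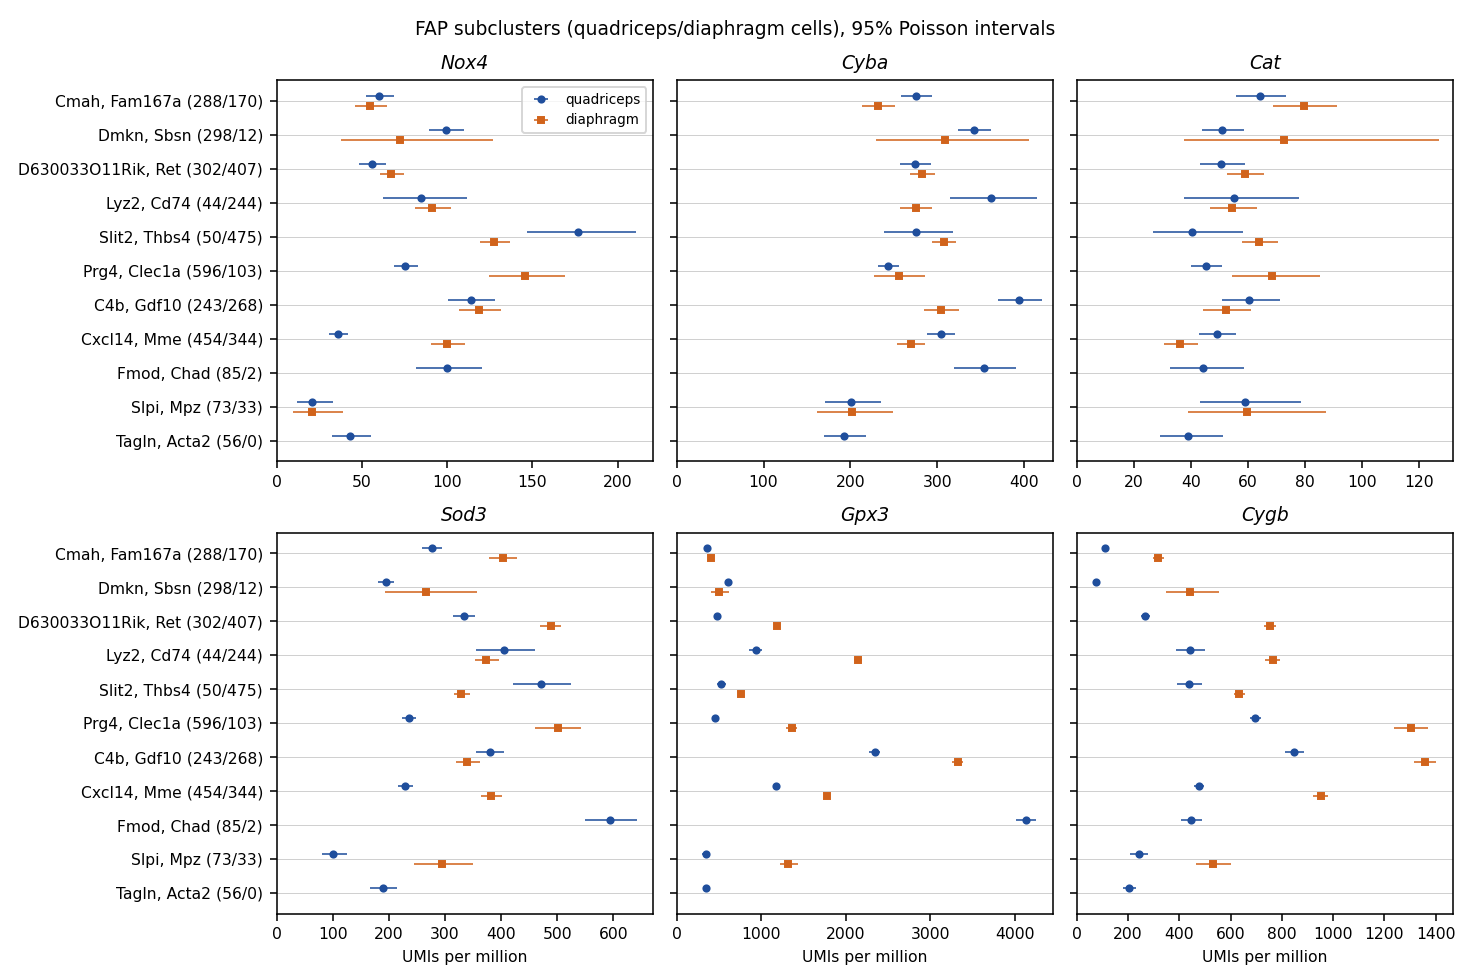
CPM of Nox4, Cyba, Cat, Sod3, Gpx3 and Cygb (x axes, linear from 0, own scale per gene) in each FAP subcluster (y axis, with quadriceps and diaphragm cell numbers), for groups of 10 or more cells with 95% Poisson intervals. Gpx3 and Cygb are higher in diaphragm in each of the 8 subclusters with at least 20 cells per tissue, and both are low in the Cmah, Fam167a cells (353 and 112 CPM in quadriceps).

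Set against all genes, 10327 genes reached 5 CPM in FAPs of either tissue. Of these 4.63% were at least 2-fold higher in quadriceps and 3.21% at least 2-fold higher in diaphragm. Of the 8 members that reached 5 CPM, 2 were at least 2-fold higher in quadriceps (Duox1 and Duoxa1) and 0 were at least 2-fold higher in diaphragm. Cybb was under the minimum. The members were chosen from this contrast, so nothing is read from the counts. The median log2 ratio was 0.31 over these 8 members and -0.11 over all 10327 genes.

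For FAPs against other barcodes 10506 genes could be compared in both tissues. Of these 16.1% were at least 2-fold higher in FAPs of both tissues and 9.67% at least 2-fold lower. Of 7 members compared, Nox4, Sod3, Gpx3 and Cygb were higher and Cybb was lower. Cyba and Cat did not reach 2-fold in both, with Cat 2.04-fold higher in quadriceps and 1.95-fold in diaphragm. Duox1 and Duoxa1 were under 5 CPM on both sides in diaphragm and were not counted. These counts too come from values that chose the members.

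**Figure D5:**
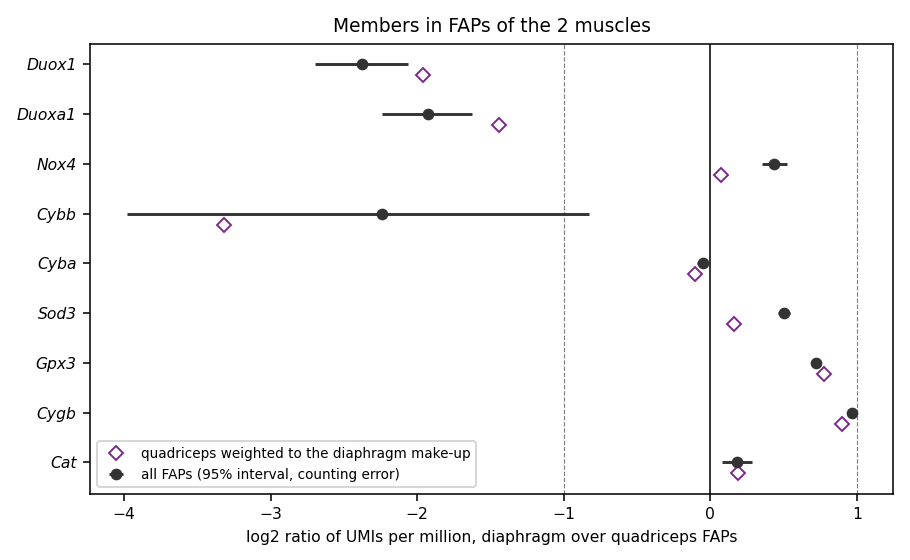
log2 ratio of CPM in diaphragm over quadriceps FAPs (x axis) for the 9 members (y axis). Filled points are all FAPs with 95% intervals, and open diamonds have quadriceps weighted to the subcluster make-up of diaphragm. Dashed lines mark 2-fold. Duox1 (-2.37) and Duoxa1 (-1.93) lie past the line on the quadriceps side under both, Cygb (0.96) lies just inside it on the diaphragm side, and Cyba at -0.05 turns to 0.06 under another scaling.

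The wider set of oxidant and antioxidant genes held 80 genes besides the members. Of 56 that reached 5 CPM in FAPs, 5 were at least 2-fold higher in diaphragm (8.93%, against 3.21% of all genes) and 3 in quadriceps (5.36%, against 4.63%). Their median log2 ratio was -0.05. The 5 were Hmox1, haem oxygenase, at 25.2 CPM in quadriceps and 111 CPM in diaphragm, the metallothioneins Mt1 (502 and 1815 CPM) and Mt2 (181 and 489 CPM), the glutathione transferase Gsta3 (4.56 and 32.1 CPM) and the aldehyde oxidase Aox3 (6.56 and 19.0 CPM). The 3 higher in quadriceps were Gsta4 (13.6 and 3.13 CPM), the microsomal glutathione transferase Mgst3 (54.9 and 20.9 CPM) and the monoamine oxidase Maoa (11.3 and 5.62 CPM). Of the 12 peroxiredoxins, thioredoxins and their partners, 0 reached 2-fold in either direction, from -0.46 for Txnip to 0.25 for Prdx4 on the log2 scale. Sod1 and Sod2, the cytosolic and mitochondrial dismutases, had log2 ratios of -0.11 and -0.44. Of the glutathione peroxidases other than Gpx3, Gpx4 (-0.24), Gpx1 (-0.23), Gpx7 (-0.12) and Gpx8 (0.14) stayed within 2-fold.

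Against other barcodes, 19 of 58 wider genes were at least 2-fold higher in FAPs of both tissues (32.8%, against 16.1% of all genes) and 6 were lower (10.3%, against 9.67%). In the group of other oxidant producers, which holds the lysyl, aldehyde, xanthine, monoamine and thiol oxidases and nitric oxide synthases, 7 of 11 were higher. On the log2 scale the lysyl oxidase-like gene Loxl2 was higher by 6.20 in quadriceps and 4.25 in diaphragm. Aox3 was higher by 7.15 (4.65 to 12.46) and 4.95 (2.46 to 10.26), against 1 UMI in other barcodes of each tissue. Mgst1 (4.91 and 4.47) and Gstm2 (3.48 and 4.85) led the glutathione group. Gpx7 (3.12 and 3.65) and Gpx8 (1.38 and 3.52), peroxidases of the endoplasmic reticulum, were higher beside Gpx3. Among the lower genes were Ncf1, Ncf4 and Rac2 of the phagocyte oxidase, Sod2 (-1.58 and -1.02) and Mgst3 (-1.58 and -1.59).

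Barcodes just outside the Dcn limit of the gate, with 40 to 49 Dcn UMIs and a Pdgfra or Cd34 UMI, had 54.4 CPM of Nox4 and 48.9 CPM of Duox1 in 41 quadriceps barcodes. Those just inside, with 50 to 59, had 69.8 and 48.3 CPM in 37 barcodes. On both sides of the limit the Duox1 level, from 9 UMIs each, was above the 19.7 CPM of all quadriceps FAPs. The gate thus left out some barcodes with Duox1. In diaphragm 13 barcodes outside and 15 inside held 0 Duox1 UMIs, and 5 and 3 of Nox4.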

How the data were processed

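Mononuclear cells of quadriceps and diaphragm were measured in 2 droplet libraries, 1 per tissue, with a 3′ tag kit. The deposited matrices hold whole-number UMI counts for each gene in each barcode. Per the labels, the authors ran Cell Ranger 3.0.0 against the mm10 (GRCm38) mouse genome. The barcodes were used as deposited. The annotation release is not given in the sources used here. The submitters' notes also name Seurat, whose values were not used. The members, lists, markers and tests were chosen with earlier results of these data known.

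UMIs were summed per group of cells and divided by the group's total (CPM). Intervals are exact Poisson for sums, conditional binomial for ratios and Clopper-Pearson for shares, at 95%. Shares at 5000 UMIs are means over all possible draws, chosen in place of 1 random draw after its noise was seen, computed from the hypergeometric distribution, with the interval taken at the mean count. A count of 0 was given a floor of 3. Because a 3′ tag is counted once per transcript, levels are not scaled for length. Code was tested on simulated data.

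For cell classes, barcodes with at least 1000 UMIs and log10 UMIs below the median plus 3 scaled median absolute deviations were kept (5010 and 2430). Both libraries were clustered together in scanpy 1.11.5 over 2000 variable genes without the listed genes, 30 components, 20 neighbours and Leiden resolution 1. No doublets were removed in the main results. Scrublet marked 98 barcodes of quadriceps (1.90%) and 4 of diaphragm (0.160%), and doublets it missed there may remain. No mitochondrial limit was used, because earlier work on these data found smooth muscle, satellite and endothelial cells mostly above 5%, as were 2938 and 826 barcodes. The 27 clusters were named from the marker lists by a rule set after seeing them: a type needed 3 markers seen in 25% of cells and 3 raised at least 2-fold, or for FAPs 6 of 8 markers seen. FAPs were reclustered at resolution 0.5 over 10 components, with genes scaled within each library. No test was possible with 1 library per tissue. Named genes are the members, wider genes of at least 5 CPM with the largest folds per role, and the 5 most like Duox1, Duoxa1 and Nox4. Of 92 wider genes and members 89 were found by symbol, and not all of them are reported here. Alternatives covered the gate, doublets, mitochondrial share, scaling, resolution and depth.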

Additional observations from a re-analysis of the deposited data

Results flagged for a closer look

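Cyba in FAPs against other barcodes went opposite ways in the 2 muscles, with a log2 ratio of 0.84 in quadriceps and -0.57 in diaphragm. The difference between muscles was not tested. The other barcodes differed in kind: the smooth muscle or pericyte marker list summed to 42444 CPM in those of quadriceps and 11222 CPM in those of diaphragm, and the T cell list to 87.6 and 606 CPM.

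Barcodes outside the UMI limits, which no class holds, had 115 UMIs of the 9 members in quadriceps and 196 in diaphragm. All 149 quadriceps barcodes of this kind were below the minimum. In diaphragm 149 of the 196 UMIs came from 2 barcodes above the upper limit.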

How the results depend on the processing

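No paired analysis was possible because each tissue has 1 library, and no replicate could be left out. Of 56 alternative values of the main results, 47 stayed within the main interval or within 1.5 times the main count. The share of FAPs with both Duox1 and Duoxa1 was 6.82% in quadriceps and 1.36% in diaphragm without thinning, and 0.120% and 0.0158% at 1000 UMIs, as fewer UMIs per cell must give. Observed shares stayed above the product under all alternatives run. The Duox1 log2 ratio ran from -2.49 to -1.96 and the Duoxa1 ratio from -2.09 to -1.44. The Duoxa1 ratio was -1.62 with FAP-like clusters in place of the gate. With quadriceps weighted to the diaphragm make-up, an alternative added after seeing the data, the ratios were -1.96 and -1.44. With a minimum of 50 CPM, 0 members were past 2-fold between tissues, since Duox1 and Duoxa1 lie below it. With all clusters that are not FAP-like as the comparison, 2 members were at least 2-fold higher in FAPs of both tissues in place of 4. That group holds 600 diaphragm FAPs of the gate. Median-of-ratios scaling raised the median log2 ratio of all genes from -0.11 to -0.00, turned the Cyba ratio to 0.058 and took Cygb to 1.07, past 2-fold. The Cygb ratio was 1.02 with FAP-like clusters. Leaving out the 3 FAP subclusters led by tendon, Schwann cell or smooth muscle genes, also added after seeing the data, gave -2.48 for Duox1 and -2.05 for Duoxa1. Depth limits the small diaphragm classes: 3 UMIs are 20.2 CPM in its macrophage or monocyte-like, 27.8 CPM in its satellite-like, 95.8 CPM in its endothelial-like and 583 CPM in its neutrophil-like barcodes.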
